A study of Homo sapiens with 12 samples.

Results

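The proteasome genes of 3 human prostate adenocarcinoma cell lines were examined: the subunits of the 20S core and 19S cap, the activators, the inhibitor and the dedicated assembly factors. A gene was a member if it was protein coding and its symbol was PSMA, PSMB, PSMC, PSMD, PSME, PSMF or PSMG followed only by a number. This gave 48 of the 57992 entries of the count table, of which 19708 are annotated as protein coding. PSMC3IP and PSME3IP1, whose symbols go on after the number, were no members. The members lie on 17 chromosomes. They comprise 7 alpha-ring genes, 4 structural, 3 constitutive catalytic and 3 immunoproteasome catalytic beta-ring genes, and 2 tissue-specific 20S genes. The others are 6 ATPases and 11 non-ATPase subunits of the 19S cap, 4 activators, 1 inhibitor and 7 assembly factors.

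MR49F was labelled enzalutamide-resistant, and C4-2 and LNCaP were labelled sensitive, with 3 libraries each of poly(A)-selected RNA. Enzalutamide is an antiandrogen drug used against prostate cancer. As background, MR49F and C4-2 are both derivatives of LNCaP, so the comparison of MR49F with LNCaP sets a resistant derivative against its parent, and that of C4-2 with LNCaP sets a sensitive derivative against the same parent. C4-2R, a second line labelled resistant, was not analysed here. Each condition is 1 cell line with no treatment stated in the labels, so the drug response and every other difference between the lines cannot be told apart. Library totals ran between 6990461 and 9375912 counts in 8 libraries and reached 42770072 in C4-2 replicate 1. Levels are in CPM, the counts of a gene scaled to library size. The 9 luminal prostate markers, KLK3 among them, were counted in all 3 lines (summed level 8937 to 9198 CPM in MR49F, 7119 to 8170 in C4-2 and 5786 to 5949 in LNCaP). The 6 leucocyte markers summed to at most 1.75 CPM in any library, and CD3E had no count in any. The 4 fibroblast markers summed to 7.15 to 8.20 CPM in MR49F, 14.4 to 19.6 in C4-2 and 24.1 to 27.9 in LNCaP, with COL1A2 at 0 in all libraries.

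The proteasome degrades ubiquitin-tagged proteins. Its 20S core is a barrel of alpha and beta rings in which PSMB5, PSMB6 and PSMB7 (beta5, beta1 and beta2) carry the chymotrypsin-like, caspase-like and trypsin-like active sites, and the 19S cap recognises, unfolds and admits substrates. Under interferon-gamma, and constitutively in many immune cells, PSMB8, PSMB9 and PSMB10 take the places of PSMB5, PSMB6 and PSMB7 in newly built cores, the immunoproteasome, which favours peptides suited to presentation on MHC class I. The other beta-ring positions and the whole alpha ring are shared by both forms.

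The sequences before the starts of the 3 immunoproteasome genes, of PSMB5 and of PSMD5 are shown because the immunoproteasome genes and PSMB5 are at the centre of the comparison of catalytic subunits and PSMD5 had the largest differences from LNCaP. Each is the RefSeq window on GRCh38.p14 of 250 bases before to 50 after the gene start, 5′ to 3′ on the gene's own strand. Capitals mark every match to the motifs described after them.
PSMB8 (chr6:32844630-32844929, minus strand): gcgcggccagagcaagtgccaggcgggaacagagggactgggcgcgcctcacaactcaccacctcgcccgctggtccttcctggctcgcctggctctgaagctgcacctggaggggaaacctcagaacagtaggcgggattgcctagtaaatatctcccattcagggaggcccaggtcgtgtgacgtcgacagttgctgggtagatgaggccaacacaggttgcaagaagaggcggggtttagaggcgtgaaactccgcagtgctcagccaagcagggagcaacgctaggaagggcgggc
PSMB9 (chr6:32853942-32854241, plus strand): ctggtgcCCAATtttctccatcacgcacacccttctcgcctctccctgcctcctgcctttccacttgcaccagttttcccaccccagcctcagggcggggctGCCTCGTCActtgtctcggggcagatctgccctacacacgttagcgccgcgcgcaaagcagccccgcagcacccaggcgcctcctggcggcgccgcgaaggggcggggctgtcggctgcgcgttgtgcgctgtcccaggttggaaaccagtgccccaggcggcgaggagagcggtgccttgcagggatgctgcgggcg
PSMB10 (chr16:67936801-67937100, minus strand): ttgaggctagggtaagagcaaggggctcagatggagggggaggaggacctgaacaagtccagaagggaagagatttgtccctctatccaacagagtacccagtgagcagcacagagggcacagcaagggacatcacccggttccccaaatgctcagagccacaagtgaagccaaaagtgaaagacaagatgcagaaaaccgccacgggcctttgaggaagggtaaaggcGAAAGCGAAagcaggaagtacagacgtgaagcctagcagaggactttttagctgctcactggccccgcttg
PSMB5 (chr14:23035171-23035470, minus strand): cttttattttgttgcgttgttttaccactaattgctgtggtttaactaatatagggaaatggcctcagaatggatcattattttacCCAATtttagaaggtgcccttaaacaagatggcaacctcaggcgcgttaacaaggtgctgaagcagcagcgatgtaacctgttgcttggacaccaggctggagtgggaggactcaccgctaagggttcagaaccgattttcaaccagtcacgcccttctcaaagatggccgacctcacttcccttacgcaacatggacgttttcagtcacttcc
PSMD5 (chr9:120842873-120843172, minus strand): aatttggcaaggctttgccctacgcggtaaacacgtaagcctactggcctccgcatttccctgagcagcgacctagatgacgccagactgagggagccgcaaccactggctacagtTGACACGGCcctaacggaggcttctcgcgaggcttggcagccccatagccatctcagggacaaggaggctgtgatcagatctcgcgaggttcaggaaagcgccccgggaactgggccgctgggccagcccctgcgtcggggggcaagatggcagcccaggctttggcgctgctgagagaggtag

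The motifs were searched on both strands in the 42 member windows that RefSeq listed and in 27305 windows of all genes. The antioxidant-response letters TGACNNNGC, read by the NFE2L1 and NFE2L2 factors that drive proteasome genes, occurred in 13 of 42 member windows (31.0%) and in 13.6% of all windows. PSMB9 and PSMD5 held them. The ETS letters CCGGAAG occurred in 13 member windows (31.0%, against 10.7% of all), and CCAAT, read by NF-Y, in 19 (45.2%, against 35.7%). The interferon-linked letters GAAANNGAA, read by IRF factors, occurred in 7 (16.7%, against 8.29% of all). These were the windows of PSMA4, PSMB4, PSMB10, PSMC2, PSME1, PSME2 and PSMG4. None of these strings was found in the PSMB8 window, and a CCAAT was the only match in that of PSMB5. A match is a string of letters and not a measured binding site. The member windows held a median of 22 CpG dinucleotides, against 14 over all windows. The PSMB10 window held 7, the PSMB5 window 10, the PSMB8 window 17, the PSMD5 window 19 and the PSMB9 window 26.

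Most proteasome genes differed little between the lines. Of the 48 members, 46 had enough counts to be tested, PSMB8 and PSMB9 only through their counts in C4-2. PSMA8, the testis form of an alpha subunit, had 0 counts in all libraries, where 3 counts, the floor used for a count of 0, would be 0.0277 CPM. PSMB11, the thymus form of the beta5 subunit, had 1 count in MR49F, 1 in C4-2 and 0 in LNCaP. In MR49F against LNCaP, 9 members were higher and 4 lower (adjusted p under 0.05 in edgeR's quasi-likelihood test), against a background of 24.1% of all 15407 tested genes higher and 22.8% lower. That is 28.3% of the members in either direction, and 47.0% of all genes. In C4-2 against LNCaP, 12 members were higher and 6 lower, 39.1% in all, where 26.2% of all genes were higher, 23.5% lower and 49.7% changed either way. In MR49F against C4-2, 13 members were higher and 14 lower, 58.7% in all, where 29.9% of all genes were higher, 31.1% lower and 61.0% changed either way. Sizes were small: 42, 41 and 37 of the 46 members stayed within a 1.5-fold difference in these 3 comparisons (91.3%, 89.1% and 80.4%), against 72.5%, 73.0% and 63.7% of all genes. The median absolute log2 fold change of the members was 0.15, 0.17 and 0.27, against 0.31, 0.32 and 0.41 over all genes. The background of all genes was not matched to the members in level, and the part of level in these differences was not tested.

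Summed over all 48 members, the level was 6044, 6007 and 6061 CPM in the MR49F libraries, 6336, 5704 and 5547 in those of C4-2, and 5737, 5896 and 5675 in those of LNCaP. The MR49F libraries all lay above those of LNCaP by a few percent, and those of C4-2 straddled both. C4-2 replicate 1 was the highest C4-2 library for 14 of 14 constitutive 20S genes. Among MR49F libraries, replicate 3 was the lowest for 9 of the 14, and among LNCaP libraries, replicate 2 was the highest for 12. C4-2 replicate 1 is also the deepest library, and the part of depth in this was not tested.

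**Figure D1:**
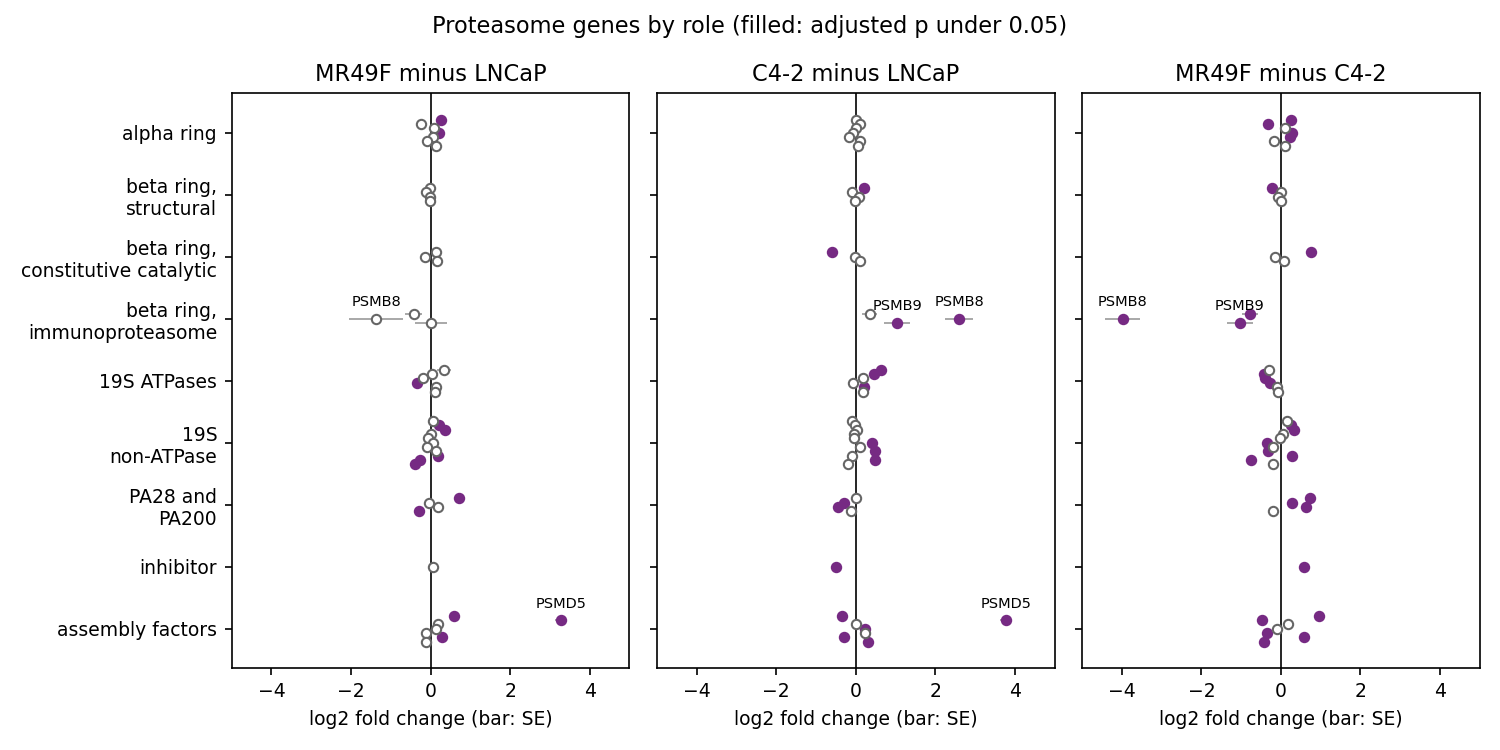
log2 fold changes of the 46 tested proteasome genes, in rows by role and in 1 panel per comparison (first line minus second), with the standard error as a bar and filled points for adjusted p under 0.05. Most genes sit near 0, while PSMD5 (3.28 and 3.77 against LNCaP) and PSMB8 (2.60 in C4-2, -3.98 in MR49F against C4-2) stand far out.

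The constitutive 20S core, the barrel shared by all proteasomes apart from its exchangeable catalytic sites, differed little between the lines. Of its 14 genes, 2 were higher and 0 lower in MR49F than in LNCaP, with a median log2 fold change of 0.03. The 2 were the alpha-ring genes PSMA1 (0.27) and PSMA4 (0.21), of which the PSMA4 call was lost under 9 of 17 alternatives (adjusted p up to 0.269). In C4-2 against LNCaP, 1 was higher (PSMB1, 0.21) and 1 lower (PSMB5, -0.60), with a median of 0.00. The PSMB1 call was also lost under 9 of 17 alternatives (adjusted p up to 0.183). In MR49F against C4-2, PSMA1 (0.26), PSMA4 (0.29), PSMA5 (0.22) and PSMB5 (0.75) were higher, and PSMA2 (-0.33) and PSMB1 (-0.22) were lower. The share called was 14.3%, 14.3% and 42.9% of the 14 genes in these 3 comparisons, against 47.0%, 49.7% and 61.0% of all genes. No 20S gene outside the immunoproteasome and PSMB5 passed 1.5-fold in any of the comparisons. PSMA3, PSMA6, PSMA7, PSMB2, PSMB3, PSMB4, PSMB6 and PSMB7 were called in none of the 3. Per kilobase of principal transcript, the constitutive 20S genes ran between 19.95 (PSMA2) and 235.3 CPM per kb (PSMA7) in MR49F, with a median of 141.7, and the medians were 120.3 in C4-2 and 127.2 in LNCaP. PSMA2 and PSMA6 were the 2 lowest of the 14 in every line. The rank of PSMA6 is uncertain. Its pseudogene PSMA6P1 held 48.2% of the counts of both in MR49F, 45.5% in C4-2 and 46.0% in LNCaP, and these were not added here.

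The catalytic subunits split in C4-2. PSMB8 (ENSG00000204264, chr6:32840717-32844703, GRCh38) had 2, 2 and 1 counts in the MR49F libraries, 158, 17 and 18 in those of C4-2, and 6, 4 and 3 in those of LNCaP. This is 0.219, 0.238 and 0.115 CPM in MR49F, 3.80, 2.15 and 2.58 in C4-2, and 0.641, 0.454 and 0.414 in LNCaP. The lines did not overlap, with C4-2 highest and MR49F lowest. In bulk RNA, fewer cells that express a gene and less of its RNA per cell cannot be told apart. In C4-2 against LNCaP the log2 fold change was 2.60 ± 0.36 (SE, adjusted p = 4.1e-06), and in MR49F against C4-2 it was -3.98 ± 0.44 (adjusted p = 1.2e-07). PSMB8 passed the filter on low counts only through C4-2, where it is high, so both calls are of a gene kept by that level. The difference of -1.37 ± 0.69 between MR49F and LNCaP did not pass (adjusted p = 0.109). It rests on 5 counts in MR49F and 13 in LNCaP, a pooled ratio of 0.373 with a 95% counting interval of 0.104 to 1.11.

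PSMB9 (ENSG00000240065, chr6:32844136-32859585) had 0.875, 1.07 and 1.04 CPM in MR49F, 2.09, 1.65 and 2.29 in C4-2, and 1.5, 0.568 and 0.827 in LNCaP. The C4-2 libraries lay above all others, and those of MR49F and LNCaP overlapped. Its annotated span holds TAP1 on the opposite strand, and with the strand setting of the counting not known, its values and ratios are uncertain. The log2 fold change was 1.04 ± 0.33 in C4-2 against LNCaP (adjusted p = 0.0116) and -1.03 ± 0.32 in MR49F against C4-2 (adjusted p = 0.0092). Like PSMB8, PSMB9 passed the filter on low counts only through C4-2, where it is high. Between MR49F and LNCaP the log2 fold change of PSMB9 was 0.01 ± 0.41 (adjusted p = 0.981). The call in C4-2 against LNCaP did not hold when C4-2 replicate 1 or LNCaP replicate 2 was left out, when C4-2 replicate 1 was thinned to the depth of the others, or under DESeq2 (adjusted p up to 0.0916).

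PSMB10 (ENSG00000205220, chr16:67934502-67937087) lies on another chromosome and moved less. It had 3.28, 3.68 and 4.15 CPM in MR49F, 6.68, 5.06 and 7.01 in C4-2, and 3.95, 5.79 and 5.24 in LNCaP. The MR49F libraries all lay below those of C4-2, while LNCaP overlapped both. PSMB10 was lower in MR49F than in C4-2 (-0.78 ± 0.19, adjusted p = 0.00175). Neither the -0.42 ± 0.21 of MR49F against LNCaP (adjusted p = 0.112) nor the 0.35 ± 0.19 of C4-2 against LNCaP (adjusted p = 0.123) passed. Without LNCaP replicate 1 the first of these passed narrowly (adjusted p = 0.04995), and without C4-2 replicate 2 the second did (adjusted p = 0.0433).

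PSMB5 (ENSG00000100804, chr14:23016543-23035230), the beta5 subunit and main target of bortezomib, was the constitutive catalytic gene that changed. It had 229.6, 233.5 and 202.3 CPM in MR49F, 151.4, 122.7 and 119.8 in C4-2, and 201.1, 206.3 and 195.1 in LNCaP. The C4-2 libraries lay below all others, and those of MR49F and LNCaP overlapped. PSMB5 was lower in C4-2 than in LNCaP (-0.60 ± 0.09, adjusted p = 1.4e-05) and higher in MR49F than in C4-2 (0.75 ± 0.09, adjusted p = 5.3e-07). The 0.14 ± 0.09 of MR49F against LNCaP did not pass (adjusted p = 0.207).

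PSMB6 (ENSG00000142507, chr17:4796144-4798503) averaged 95.0 ± 12.2 CPM in MR49F, 103.8 ± 16.1 in C4-2 and 105.4 ± 8.6 in LNCaP (SD, n = 3 each). PSMB7 (ENSG00000136930, chr9:124353466-124415444) averaged 123.5 ± 6.2, 116.5 ± 17.2 and 109.9 ± 6.9 in the same order of lines. Both overlapped between all lines. The log2 fold changes of PSMB6 were -0.15 ± 0.11 in MR49F and -0.01 ± 0.11 in C4-2 against LNCaP, and those of PSMB7 were 0.17 ± 0.10 and 0.10 ± 0.10, with edgeR adjusted p between 0.160 and 0.950.

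**Figure D2:**
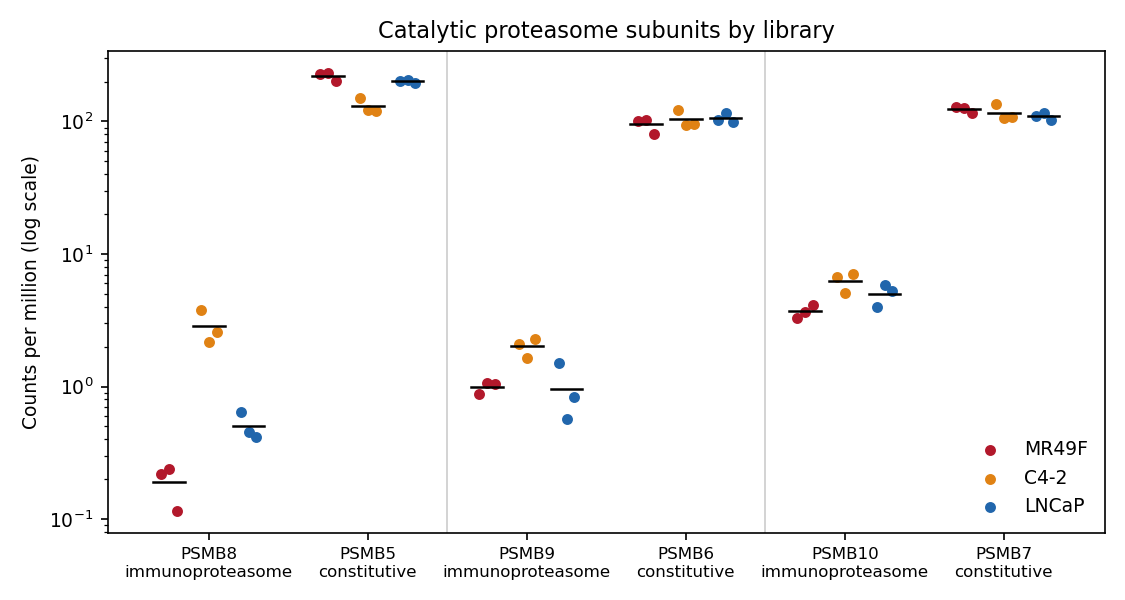
CPM on a log axis of each immunoproteasome gene beside the constitutive subunit whose place it takes, with 3 points per line (1 per library) and a black line at the mean. The immunoproteasome genes lie between 0.115 and 7.01 and the constitutive genes between 81.0 and 233.5, and C4-2 is highest for PSMB8 and lowest for PSMB5.

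The levels of both forms differed by more than an order of magnitude in every line. The 3 immunoproteasome genes summed to 4.89 ± 0.47 CPM in MR49F, 11.1 ± 2.0 in C4-2 and 6.46 ± 0.36 in LNCaP (SD, n = 3 each). The 3 constitutive catalytic genes summed to 440.3 ± 35.2 in MR49F, 351.6 ± 50.7 in C4-2 and 416.1 ± 20.8 in LNCaP. The shares that follow pool the raw counts of a line's libraries, so the deep C4-2 replicate 1 weighs most in C4-2. Corrected for transcript length, PSMB8 made up 0.0988% of the PSMB8 and PSMB5 signal in MR49F, 2.67% in C4-2 and 0.292% in LNCaP. For PSMB8, replicate 1 gave 158 of the 193 counts in C4-2, and the MR49F share rests on 5 counts. PSMB9 made up 1.12% of its pair with PSMB6 in MR49F, 1.91% in C4-2 and 1.00% in LNCaP. PSMB10 made up 2.35% of its pair with PSMB7 in MR49F, 3.91% in C4-2 and 3.49% in LNCaP.

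The ratio of the 2 genes of a pair within a library is free of library size. The log2 ratio of PSMB8 to PSMB5 counts was -10.03, -9.94 and -10.78 in MR49F, -5.32, -5.83 and -5.54 in C4-2, and -8.29, -8.83 and -8.88 in LNCaP. The 3 lines did not overlap. The differences were -1.58 in MR49F and 3.10 in C4-2 against LNCaP, and -4.69 in MR49F against C4-2, each with exact two-sided permutation p = 0.1, the smallest that 3 libraries against 3 can give. Pooled over libraries, PSMB5 had 1164 counts for each PSMB8 count in MR49F, 42.0 in C4-2 and 393.4 in LNCaP.

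For PSMB9 over PSMB6 the log2 ratio was -6.85, -6.59 and -6.29 in MR49F, -5.87, -5.83 and -5.38 in C4-2, and -6.10, -7.66 and -6.90 in LNCaP. The C4-2 libraries lay above those of both other lines, which overlapped. The differences were 0.31 in MR49F against LNCaP (exact permutation p = 0.6), 1.19 in C4-2 against LNCaP and -0.88 in MR49F against C4-2 (exact permutation p = 0.1 for both). For PSMB10 over PSMB7 the ratio was -5.28, -5.10 and -4.81 in MR49F, -4.35, -4.38 and -3.94 in C4-2, and -4.80, -4.33 and -4.30 in LNCaP. The MR49F libraries lay below all libraries of both other lines, with -4.81 in MR49F replicate 3 and -4.80 in LNCaP replicate 1 the closest (differences of -0.59 against LNCaP and -0.84 against C4-2, exact permutation p = 0.1 for both). C4-2 and LNCaP overlapped, with a difference of 0.25 (exact permutation p = 0.6). The low counts of PSMB8 and PSMB9 limit these ratios, and the ratios of MR49F and of LNCaP rest on 5 to 26 counts of either gene summed over the libraries of a line.

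**Figure D3:**
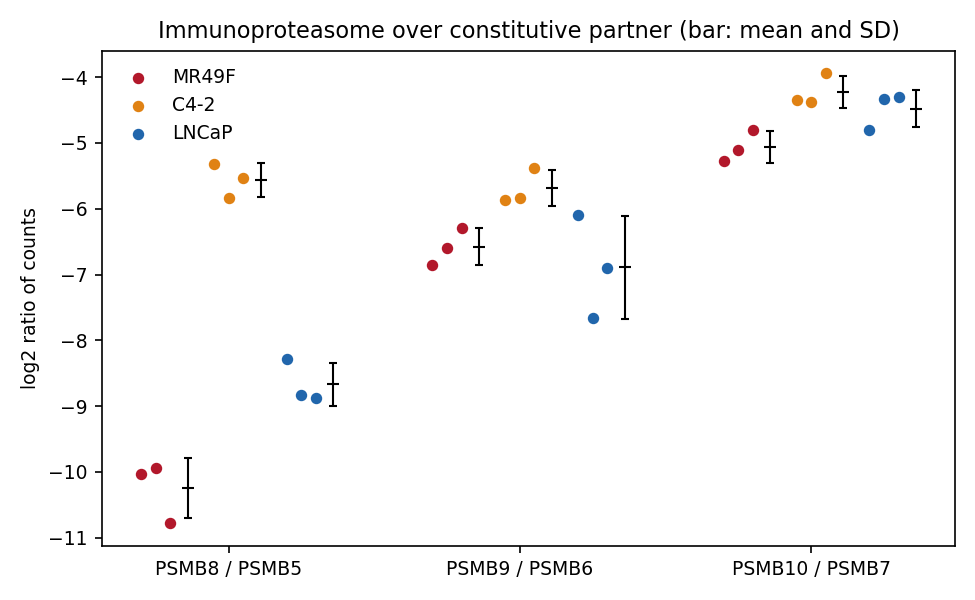
log2 ratio of the counts of each immunoproteasome gene to those of its constitutive partner, with 3 points per line (1 per library) and the mean with its SD as a bar. For PSMB8 over PSMB5 the means are -10.25 in MR49F, -5.56 in C4-2 and -8.67 in LNCaP, while the other pairs differ by at most 1.19 between lines.

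The MR49F and C4-2 comparisons with LNCaP use the same LNCaP libraries, so their values are set side by side with no test of likeness. PSMD5 (S5b, ENSG00000095261, chr9:120815496-120842984), a chaperone that escorts ATPases of the cap during 19S assembly and is absent from the finished particle, had the largest log2 fold changes against LNCaP of the 46 tested members in both comparisons. It had 29.3, 32.2 and 28.4 CPM in MR49F, 39.0, 42.5 and 45.1 in C4-2, and 3.31, 2.95 and 2.90 in LNCaP. The 3 lines did not overlap, and LNCaP was low in every library. The log2 fold change was 3.28 ± 0.14 in MR49F (9.74-fold, adjusted p = 1.2e-13) and 3.77 ± 0.14 in C4-2 (13.6-fold, adjusted p = 8.1e-15) against LNCaP, and -0.48 ± 0.10 in MR49F against C4-2 (adjusted p = 0.00026). Per kilobase of transcript, PSMD5 was the lowest of the 7 assembly factors in LNCaP (0.887 CPM per kb) and in MR49F (8.70), and the next to lowest in C4-2 (12.3).

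CUTALP, a transcribed pseudogene on the opposite strand that overlaps PSMD5, moved with it: 3.39 CPM in MR49F, 4.90 in C4-2 and 0.279 in LNCaP, with log2 fold changes of 3.57 and 3.98 against LNCaP. The library kit keeps strand, but the strand setting of the counting is not given in the sources used here, so reads of the overlap cannot be assigned with certainty. Other genes nearby did not follow in both lines. PHF19 had log2 fold changes of 0.13 in MR49F and -0.33 in C4-2 against LNCaP, B3GALT9 had -0.86 and -0.54, and FBXW2 had -0.18 and -0.37. C5, the complement gene beyond PHF19, had 0.27 in MR49F and 3.27 in C4-2, with 0.381 CPM in MR49F, 3.11 in C4-2 and 0.312 in LNCaP. The median over the 14 tested genes within 1 Mb was -0.23 in MR49F and 0.23 in C4-2.

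The other assembly factors were PSMG1 to PSMG4, which build the alpha ring, and PSMD9 and PSMD10, which like PSMD5 chaperone ATPases of the cap. PSMD10 (gankyrin, ENSG00000101843, chrX:108084207-108091618), described as an oncoprotein in liver cancer, went opposite ways in the derivatives. It had 137.6, 136.5 and 145.8 CPM in MR49F, 73.9, 73.1 and 69.5 in C4-2, and 94.0, 92.5 and 90.3 in LNCaP, with no overlap between lines. It was higher in MR49F than in LNCaP (0.60 ± 0.08, adjusted p = 1.6e-06), lower in C4-2 than in LNCaP (-0.35 ± 0.08, adjusted p = 0.00078) and higher in MR49F than in C4-2 (0.95 ± 0.08, adjusted p = 1.1e-09).

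PSMG3 was also called in opposite directions, at 0.29 in MR49F and -0.30 in C4-2 against LNCaP, but both calls were near the threshold (adjusted p = 0.0487 and 0.0443) and were lost under 11 and 10 of 17 alternative settings, and its C4-2 and LNCaP libraries overlapped. Its 0.59 ± 0.12 in MR49F against C4-2 held under all of them. PSMG1 (0.23) and PSMG4 (0.30) were higher in C4-2 than in LNCaP. PSMG2 (-0.34) and PSMG4 (-0.42) were lower in MR49F than in C4-2. PSMD9 was called in no comparison.

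In the 19S cap, 3 of 17 genes were higher and 3 lower in MR49F than in LNCaP, and 6 were higher and 0 lower in C4-2 than in LNCaP. This is 35.3% of the cap genes called in each, against 47.0% of all genes in MR49F and 49.7% in C4-2. MR49F had more PSMD12 (0.36 ± 0.09, adjusted p = 0.00257), PSMD11 (0.22) and PSMD6 (0.19), all subunits of the lid. It had less PSMD8 (-0.39 ± 0.09, adjusted p = 0.00218) and PSMD7 (-0.27), both of the lid, and less of the ATPase PSMC4 (-0.34). C4-2 had more PSMD7 (0.49), PSMD4 (0.48), a ubiquitin receptor, PSMC2 (0.46), PSMD2 (0.41), the large scaffold of the base, PSMC1 (0.64) and PSMC5 (0.22). The PSMC5 and PSMD6 calls stood near the threshold (adjusted p = 0.0482 and 0.0483) and were lost under 14 and 12 of 17 alternatives. In MR49F against C4-2, 52.9% of the cap genes were called, against 61.0% of all genes: PSMD6 (0.29), PSMD11 (0.25) and PSMD12 (0.32) were higher, and PSMC2 (-0.43), PSMC3 (-0.40), PSMC4 (-0.27), PSMD2 (-0.35), PSMD4 (-0.33) and PSMD7 (-0.76) were lower. PSMC6, PSMD1, PSMD3, PSMD13 and the deubiquitinase PSMD14 were called in no comparison.

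PSMD8 (ENSG00000099341, chr19:38374536-38383824) had 142.9, 137.3 and 138.4 CPM in MR49F, against 170.1, 201.9 and 174.9 in LNCaP. PSMD12 (ENSG00000197170, chr17:67337916-67366627) had 189.2, 181.0 and 228.9 in MR49F, against 153.7, 151.4 and 162.2 in LNCaP. Neither gene overlapped between these lines. PSMD7 (ENSG00000103035, chr16:74296775-74306288), which pairs with the deubiquitinase PSMD14, was the cap gene with the widest spread between the derivatives. It had 132.5, 141.0 and 147.5 CPM in MR49F, 249.9, 232.9 and 229.8 in C4-2, and 166.6, 168.9 and 171.9 in LNCaP. The 3 lines did not overlap, with MR49F lowest and C4-2 highest. In MR49F against C4-2 the log2 fold change was -0.76 ± 0.08 (adjusted p = 2.7e-08).

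PSMC1 (ENSG00000100764, chr14:90256495-90275429), an ATPase of the cap, is uncertain. It had 10.1, 8.43 and 9.34 CPM in MR49F, 13.1, 9.11 and 10.6 in C4-2, and 7.69, 6.82 and 7.44 in LNCaP, the lowest per kilobase of the 17 cap genes in each line. Its processed copy PSMC1P1 held 92.8% of the counts of both in MR49F, 90.5% in C4-2 and 94.1% in LNCaP. The call in C4-2 against LNCaP (0.64 ± 0.16, adjusted p = 0.00213) was lost when the counts of the copies were added to PSMC1 (-0.03, adjusted p = 0.758).

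**Figure D4:**
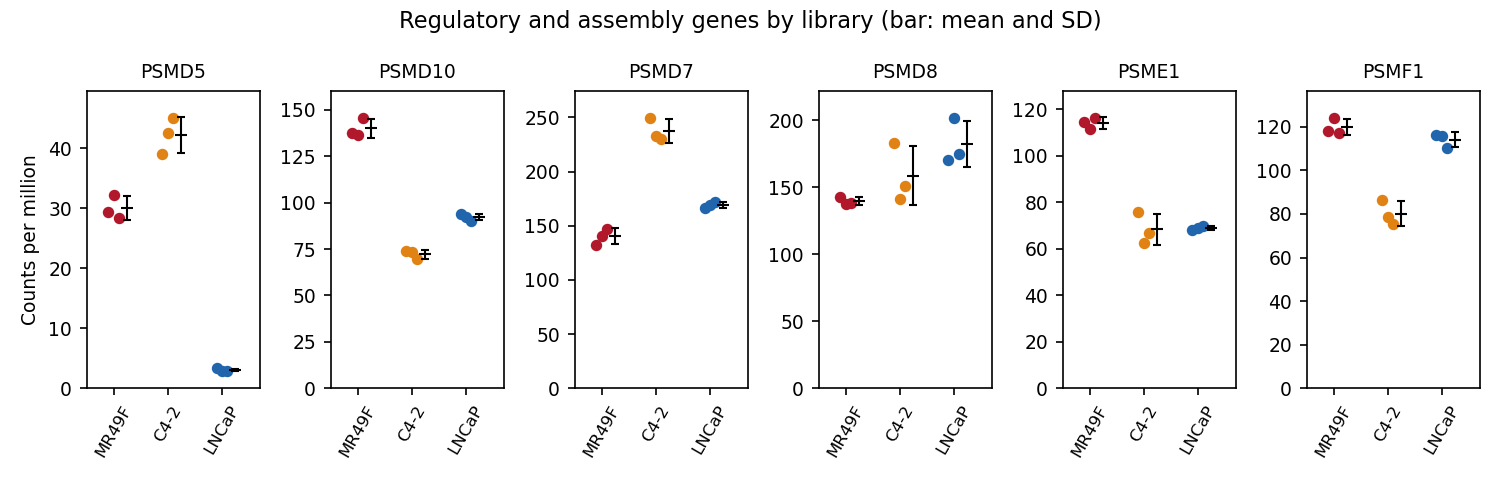
CPM of PSMD5, PSMD10, PSMD7, PSMD8, PSME1 and PSMF1, each on its own axis from 0, with 3 points per line (1 per library) and the mean with its SD as a bar. PSMD5 is near 3 only in LNCaP, PSMD10 and PSME1 are highest in MR49F, PSMD7 is highest in C4-2 and PSMF1 is lowest there.

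The activators bind the ends of the core in place of the 19S cap. PSME1 and PSME2 form the interferon-inducible PA28 alpha-beta ring, PSME3 the nuclear PA28 gamma ring and PSME4 is PA200. PSME1 (ENSG00000092010, chr14:24136158-24138967) had 114.5, 111.5 and 116.5 CPM in MR49F, 75.7, 62.6 and 66.8 in C4-2, and 68.3, 69.1 and 70.0 in LNCaP. The MR49F libraries lay above all others, and those of C4-2 and LNCaP overlapped. PSME1 was higher in MR49F than in LNCaP (0.72 ± 0.08, adjusted p = 5.5e-07) and than in C4-2 (0.73 ± 0.08, adjusted p = 2.3e-07), with -0.00 ± 0.09 in C4-2 against LNCaP (adjusted p = 0.975).

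PSME2 (ENSG00000100911, chr14:24143362-24147570), which lies a few kilobases from PSME1, did not follow its partner in the comparisons with LNCaP. It had 84.0, 74.2 and 73.4 CPM in MR49F, 69.4, 61.2 and 60.4 in C4-2, and 76.4, 77.5 and 83.3 in LNCaP. It was lower in C4-2 than in LNCaP (-0.30 ± 0.09, adjusted p = 0.0079) and higher in MR49F than in C4-2 (0.27 ± 0.09, adjusted p = 0.0124). Between MR49F and LNCaP it was at -0.03 ± 0.09 (adjusted p = 0.799). PSME3 was lower in C4-2 than in LNCaP (-0.45) and higher in MR49F than in C4-2 (0.63). PSME4 was lower in MR49F than in LNCaP (-0.30). PSMF1 (PI31), which inhibits the 20S core in vitro, was lower in C4-2 than in LNCaP (-0.50) and higher in MR49F than in C4-2 (0.57). Its 0.07 in MR49F against LNCaP did not pass.

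Some members lay near the median of their neighbouring genes and others did not. The medians here are over tested genes within 1 Mb of a member, a window set after earlier results were known. In C4-2 against LNCaP, the neighbours of PSMB5 had a median log2 fold change of -0.47 (1 of 36 higher, 22 lower), and those of PSME1 and PSME2 one of -0.57 (1 of 48 higher, 33 lower). Around PSMB8 and PSMB9, in the MHC class II region, it was 0.49 (39 of 55 higher, 3 lower). PSMD7 had neighbours at 0.47 in C4-2 (10 of 16 higher, 0 lower) and at -0.64 in MR49F (0 higher, 11 lower), beside its own 0.49 and -0.27. PSMB5 (-0.60) and PSMD7 in C4-2 thus lay near their neighbours' medians, and PSMB8 (2.60) and PSMB9 (1.04) lay above theirs. Single class II genes near PSMB8 varied widely in C4-2 against LNCaP. HLA-DPA1 (3.03), HLA-DPB1 (2.35) and HLA-DQA1 (4.82) were higher, from LNCaP means of 1.19, 0.654 and 0.0712 CPM. HLA-DMB (-2.59) and HLA-DQB1 (-0.74) were lower, and HLA-DMA (-0.14) was not called. In MR49F against LNCaP, the neighbours of PSMB10 had a median of -0.39 (1 of 55 higher, 36 lower) beside its own -0.42. Those of PSMD8 had -0.34 (1 of 34 higher, 15 lower) beside its -0.39. Those of PSMC4 had -0.33 (3 of 41 higher, 23 lower) beside its -0.34. PSME4, also called lower (-0.30), had neighbours at -0.01. PSME1 in MR49F (0.72) and PSMD5 in both derivatives lay far from theirs (-0.01 for PSME1). PSMD14 showed the opposite in C4-2, with -0.05 beside a median of 1.98 over 9 neighbours. Across the 46 members, Spearman's rho between a member and the median of its neighbours was 0.218 in MR49F against LNCaP, 0.413 in C4-2 against LNCaP and 0.493 in MR49F against C4-2. The sign was shared by 29, 28 and 24 of the 46 members. This is a description over genes that share libraries and partly share neighbours. Copy number was not measured, and its part in these values was not tested.

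**Figure D5:**
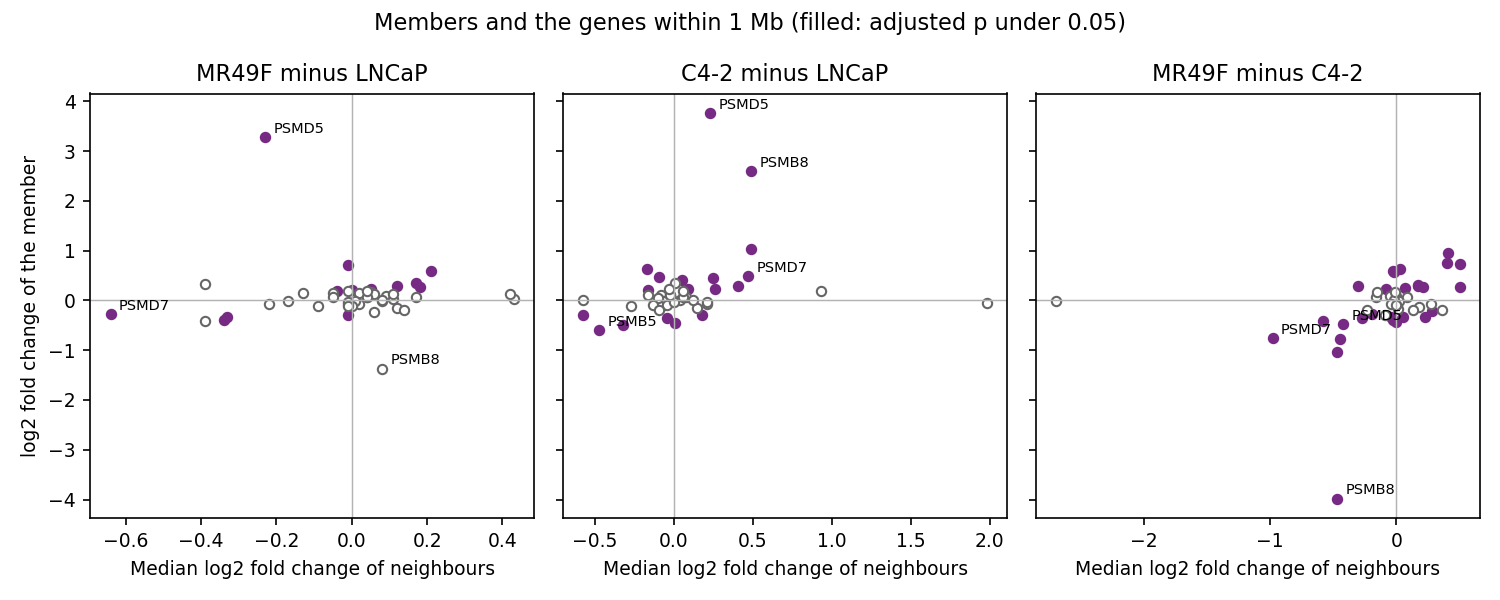
log2 fold change of each of the 46 tested members (vertical) against the median of the tested genes within 1 Mb of it (horizontal), in 1 panel per comparison (first line minus second) with its own horizontal range, filled where the member had adjusted p under 0.05. Against LNCaP, PSMD5 lies far above its neighbours' median in both derivatives and PSMB8 does in C4-2, where PSMD7 and PSMB5 lie near theirs.

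Genes that act with the proteasome but fall outside the symbol rule were counted by list. Of 8 further proteasome genes, 3 were higher and 0 lower in MR49F than in LNCaP, 3 higher and 1 lower in C4-2 than in LNCaP, and 2 higher and 2 lower in MR49F than in C4-2. The shares of all genes were 24.1% higher and 22.8% lower, 26.2% and 23.5%, and 29.9% and 31.1%. POMP, the maturation factor of the beta rings for constitutive and immuno cores alike, had the lowest adjusted p among them in each comparison. It had 147.4, 145.0 and 164.3 CPM in MR49F, 311.6, 256.7 and 244.2 in C4-2, and 79.3, 73.7 and 77.1 in LNCaP, with no overlap. The log2 fold change was 0.99 ± 0.09 in MR49F (adjusted p = 2.9e-08) and 1.83 ± 0.09 in C4-2 (adjusted p = 1.8e-12) against LNCaP, and -0.84 ± 0.09 in MR49F against C4-2 (adjusted p = 9.7e-08). SEM1 (DSS1), the small subunit of the lid, was higher in both derivatives than in LNCaP as well (0.35 and 0.63).

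The class I antigen processing list, into which immunoproteasome peptides feed, had 15 tested genes. All 15 were higher in C4-2 than in LNCaP, with a median log2 fold change of 0.86, against 26.2% of all genes. In MR49F, 4 were higher and 3 lower than in LNCaP, where 24.1% of all genes were higher and 22.8% lower. Against C4-2, 1 was higher and 12 lower in MR49F, where 29.9% of all genes were higher and 31.1% lower. TAP1, a subunit of the peptide transporter whose gene overlaps PSMB9 on the other strand, was higher in C4-2 than in LNCaP (0.35) and lower in MR49F than in C4-2 (-0.54), with -0.19 in MR49F against LNCaP (adjusted p = 0.140). TAP1 averaged 35.1 CPM in MR49F, 50.8 in C4-2 and 40.1 in LNCaP. How reads of the overlap were assigned between TAP1 and PSMB9, which had far fewer counts, was not tested. TAP2, its partner, was higher than in LNCaP in both MR49F (0.28) and C4-2 (0.53).

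Of the 14 genes on the interferon-gamma list, 11 were tested. In MR49F 0 were higher and 5 lower than in LNCaP, in C4-2 4 were higher and 1 lower than in LNCaP, and in MR49F 4 were higher and 6 lower than in C4-2. Of all genes, 24.1% were higher and 22.8% lower, 26.2% higher and 23.5% lower, and 29.9% higher and 31.1% lower in these 3 comparisons. IRF1, a transcription factor that drives immunoproteasome genes, averaged 2.10 CPM in MR49F, 8.93 in C4-2 and 5.18 in LNCaP. It was lower in MR49F (-1.32, adjusted p = 0.00011) and higher in C4-2 (0.74, adjusted p = 0.00173) than in LNCaP. GBP2, an interferon-induced GTPase, was also lower in MR49F (-3.50) and higher in C4-2 (1.38), as was IFNGR1, a chain of the interferon-gamma receptor (-0.63 and 0.66). JAK2, a kinase of that receptor, was lower than in LNCaP in both MR49F (-0.59, adjusted p = 0.00088) and C4-2 (-1.34, adjusted p = 6e-08) and higher in MR49F than in C4-2 (0.75). It had the lowest adjusted p of the list in C4-2 against LNCaP. NLRC5, the activator of class I genes, was higher in C4-2 than in LNCaP (0.62), with 0.08 in MR49F (adjusted p = 0.771).

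The counts of the next 3 lists stand beside 47.0%, 49.7% and 61.0% of all genes called either way in MR49F against LNCaP, C4-2 against LNCaP and MR49F against C4-2. NFE2L1, the transcription factor that raises proteasome genes when the proteasome is inhibited, averaged 260.8 CPM in MR49F, 386.6 in C4-2 and 326.7 in LNCaP. It was lower in MR49F (-0.33, adjusted p = 0.00205) and higher in C4-2 (0.24, adjusted p = 0.0141) than in LNCaP. Of the 12 genes of its list, 4 were higher and 3 lower in MR49F than in LNCaP, 2 higher and 5 lower in C4-2 than in LNCaP, and 4 higher and 1 lower in MR49F than in C4-2. Of 8 genes for ubiquitin and its activation, 5 were higher and 1 lower in MR49F than in LNCaP, 1 higher and 2 lower in C4-2 than in LNCaP, and 5 higher and 1 lower in MR49F than in C4-2. UBA1, the main ubiquitin-activating enzyme, was 1.55-fold higher in MR49F than in LNCaP. Among 9 tested shuttles and partners the counts were 2 higher and 1 lower in MR49F and 2 higher and 1 lower in C4-2 against LNCaP, and 3 higher and 2 lower in MR49F against C4-2. UBQLN2, a shuttle that delivers ubiquitinated proteins, averaged 174.4 CPM in MR49F, 71.7 in C4-2 and 121.9 in LNCaP, so that it was higher in MR49F (1.43-fold) and lower in C4-2 (0.587-fold) than in LNCaP.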

How the data were processed

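Poly(A)-selected RNA of prostate cancer cell lines was prepared with a stranded TruSeq kit and sequenced on a HiSeq2500, per the labels. The deposited values are whole-number counts per Ensembl gene, with no normalization. Tools listed by the submitters' processing notes, in no stated role, are TopHat2, HTSeq 0.6.1, FastQC 0.11.3 and edgeR 3.12.1, with GRCh38.p12 as genome. No source used here gives the strand setting, annotation release or filters of the counting. Of the table's columns, 9 were matched to sample titles by name. A further 3 match no title and were not used, so C4-2R was not analysed and the fit held 3 lines.

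Symbols came from a table of gene names (56948 IDs matched) and coordinates and types from GENCODE 29 (57388 IDs matched). Reads of near-identical copies, overlapping genes and antisense genes may have been split or dropped in the counting. The tests used edgeR 4.0.16 (R 4.3.3) with TMM scaling, the filterByExpr filter and robust quasi-likelihood F tests on all 9 libraries, with 6 residual degrees of freedom and a common biological coefficient of variation of 0.0817. P-values were adjusted by Benjamini-Hochberg over all 15407 tested genes, and a gene was called at an adjusted p under 0.05. Levels (CPM) are counts divided by TMM-scaled library size. DESeq2 1.42.0, other scalings and filters, a replicate block, thinning of C4-2 replicate 1 and leaving out each library were tried.

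The labels say biological replicates, with no word on separate cultures, so p-values measure only the spread between these libraries. No 2 libraries agreed within counting noise (chi-square per degree of freedom 1.46 to 19.28). Intervals and floors cover counting error only.

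The members and gene lists were chosen with earlier results of these data known. Full statistics are given for the catalytic pairs, PSME1, PSME2 and the 5 called members with the largest change in each comparison. From other lists, counts and at most 4 genes of lowest adjusted p are given, with TAP1, TAP2, IRF1, NLRC5 and NFE2L1 always. Some items are not reported here. Others were chosen after their values were seen.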

Additional observations from a re-analysis of the deposited data

How the results depend on the processing

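Of the calls against LNCaP, 8 of 13 in MR49F and 11 of 18 in C4-2 held under every alternative, as did 20 of 27 in MR49F against C4-2. Calls lost under at least 1 were PSMA4, PSMD6, PSMD7, PSMD11 and PSMG3 in MR49F against LNCaP, PSMB1, PSMB9, PSMC1, PSMC5, PSMG1, PSMG3 and PSMG4 in C4-2 against LNCaP, and PSMA2, PSMA5, PSMB1, PSMB9, PSMC4, PSMD4 and PSME2 in MR49F against C4-2. PSMA2, PSMC4 and PSMD4 lost theirs only without C4-2 replicate 1, PSMD7 only without MR49F replicate 1 (adjusted p = 0.0519) and PSMB9 in MR49F against C4-2 only under DESeq2 (adjusted p = 0.0527). No pair ratio could pass a threshold of 0.05 with 3 libraries a line. Without LNCaP replicate 2, PSMB9 over PSMB6 changed to -0.08 in MR49F against LNCaP (0.31 with all) and to 0.80 in C4-2 against LNCaP (1.19 with all). Leaving out 1 library gave 5 to 12 members higher in MR49F than in LNCaP (9 with all libraries, 5 without LNCaP replicate 2 or replicate 3), 7 to 15 higher in C4-2 than in LNCaP (12 with all, 7 without LNCaP replicate 2) and 5 to 10 lower in C4-2 (6 with all, 10 without C4-2 replicate 1). Of all genes, 24.1% were higher in MR49F with all libraries, 19.2% and 19.3% where 5 members were, and 28.1% where 12 were. For genes higher in C4-2 the share was 26.2% with all libraries, 22.4% where 7 members were higher and 27.2% where 15 were. For genes lower in C4-2 it was 23.5% with all libraries and 23.0% where 10 members were lower. With only the 6 libraries compared, 7 members were lower in MR49F than in LNCaP, against 4 in the fit of all lines. The shares of all genes lower were 27.8% and 22.8%. The causes were not tested. With pseudogene counts added to their parents, an alternative chosen after seeing the data, PSMC1 in C4-2 against LNCaP went from 0.64 to -0.03. Its call was lost.

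Same-numbered libraries did not deviate together (correlations of -0.083 to 0.056). Whether they were prepared together cannot be told from these correlations. With the replicate block, 7 members were higher and 4 lower in MR49F than in LNCaP, 11 and 6 in C4-2 than in LNCaP, and 13 and 14 in MR49F than in C4-2. The shares of all genes higher and lower with the block were 23.7% and 22.5%, 25.4% and 23.1%, and 29.5% and 30.6%. Depth limits PSMB8 and PSMB9 most, with 5 to 26 counts summed over the libraries of MR49F or LNCaP.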
